A study of Mus musculus with 8 samples.

Results

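A set of 8 genes that export, store and oxidise iron was followed in red pulp macrophages of the mouse spleen 2 h after CLP (cecal ligation and puncture) or after a sham operation. They were Slc40a1, the ferritin chain genes Fth1 and Ftl1, Ncoa4, Pcbp1, Pcbp2, Cp and Heph, chosen by name for their roles, and all 8 were found among the 55414 gene rows of the count table. Of the 8, 7 had enough reads to be tested. The mice were WT C57BL/6J in both groups, the macrophages were isolated from the spleen by FACS, and each group had 4 libraries. In CLP, used to model sepsis, gut contents leak from the punctured cecum into the abdomen, and the sham-operated mice were the controls. The labels give no age and do not tie the libraries to separate animals. A p-value here therefore reflects the spread among the sequenced samples, part of which may be technical.

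Red pulp macrophages engulf aged red blood cells and break down their heme, and the freed iron is either stored or returned to the blood. Storage takes place in ferritin, a shell built of heavy chains (Fth1), which oxidise iron, and light chains (Ftl1), which help to mineralise it. The chaperones Pcbp1 and Pcbp2 carry iron in the cytosol, the receptor Ncoa4 takes ferritin to the lysosome for breakdown, and ferroportin (Slc40a1) is the exporter at the cell surface. The ferroxidases ceruloplasmin (Cp) and hephaestin (Heph) oxidise exported iron so that transferrin can bind it. In many cells ferritin and ferroportin are also set at translation, where iron regulatory proteins bind a stem-loop, the iron-responsive element, in the 5′ UTR of the messenger RNA. Read counts measure RNA and not this step.

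The stem-loop is shown for the 3 genes that carry it, because they are the exporter and the pair of ferritin chains, whose ratios the results turn on. The search took a bulged C, 5 bases, the loop CAGTGN with any last base but G, and 5 bases that pair with the first 5 (G-T pairs allowed). Capitals mark the bulged C and the 6 bases of the loop.
Slc40a1: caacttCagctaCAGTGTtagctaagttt
Fth1: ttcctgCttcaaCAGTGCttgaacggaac
Ftl1: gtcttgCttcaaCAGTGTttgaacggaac
Each printed stretch of 29 bases lay inside exon 1, in the 5′ UTR, of a GENCODE transcript on GRCm38: chr1:45925465-45925493 on the minus strand for Slc40a1, chr19:9982732-9982760 on the plus strand for Fth1 and chr7:45459779-45459807 on the minus strand for Ftl1. The bulged C stood at base 96 of 319 UTR bases in Slc40a1, base 93 of 224 in Fth1 and base 84 of 253 in Ftl1. Of 20313 genes with a searched 5′ UTR, 21 (0.103%) held such a stem-loop, and the other 5 of the 8 genes held none. These letters are a description and show neither protein binding nor translation.

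Of the 7 tested genes, 4 (Fth1, Pcbp1, Pcbp2 and Cp) were higher after CLP, 1 (Slc40a1) was lower and 2 (Ftl1 and Ncoa4) did not pass the threshold, an adjusted p under 0.05 in edgeR's quasi-likelihood test. Across all 14004 genes tested, 43.3% changed, 19.8% were higher and 23.5% lower. The median log2 fold change (CLP minus sham) was 0.33 over the 7 genes and -0.053 over all genes. The groups did not overlap for 5 of the 7 genes, against 41.5% of all genes. With so common a change in the background, the counts say little by themselves, and the size and direction for each gene follow. Levels are CPM, the reads of a gene scaled to the library's depth, with trimmed mean of M-values (TMM) scaling, which sets libraries to a common level by genes assumed not to change. Plain library totals gave a median shift of -0.318 in the log2 fold changes and called 9.18% of genes higher and 46.0% lower, so small differences are given under both scalings. In RNA from a sorted population, fewer cells of a type and less RNA per cell cannot be told apart.

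**Figure D1:**
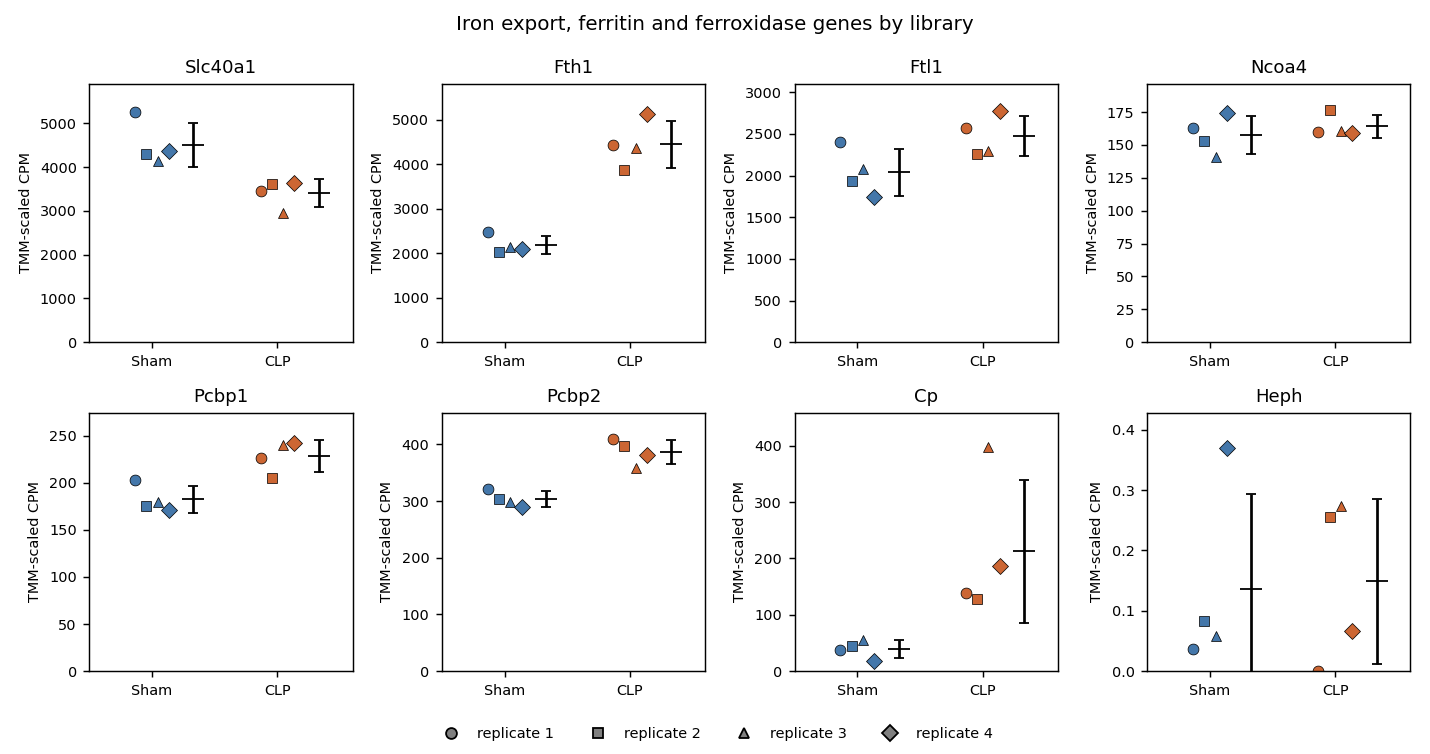
TMM-scaled CPM (linear axis from 0) of the 8 genes in the 4 sham and 4 CLP libraries, 1 point per library, with the mean and SD beside each group (the sham SD bar of Heph is cut at 0). Fth1, Pcbp1, Pcbp2 and Cp lie higher in every CLP library than in any sham library, Slc40a1 lies lower, and Ftl1, Ncoa4 and Heph overlap.

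Slc40a1, the known iron exporter of vertebrate cells, fell. It was read at 5254, 4297, 4147 and 4358 CPM in sham replicates 1 to 4 and at 3465, 3603, 2948 and 3639 CPM in CLP replicates 1 to 4. All 4 CLP libraries lay below the lowest sham library, sham replicate 1 was the highest and CLP replicate 3 the lowest. The mean fell 1.32-fold, from 4514 ± 501 to 3414 ± 320 CPM (SD, n = 4 each). Its log2 fold change was -0.40 (SE 0.10, 95% interval -0.62 to -0.18, edgeR adjusted p = 0.0074). Leaving out sham replicate 1 gave the smallest drop, -0.29 (adjusted p = 0.0396). Library totals gave a larger drop, -0.72. Its call was lost with 1 surrogate variable estimated from the raw counts, an alternative chosen after seeing the data (-0.33, adjusted p = 0.108).

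Ferroportin RNA was abundant in both states. Its mean per kilobase of transcript was 1339 CPM in sham libraries against 1013 CPM after CLP, which placed it 20th and 38th among 13949 tested genes with a known transcript length. Each library held 53786 to 145188 Slc40a1 reads, so counting error was small beside the spread between libraries.

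Of the ferritin chain genes, the heavy chain gene rose and the light chain gene did not pass the threshold. Fth1 was read at 2474, 2033, 2150 and 2095 CPM in sham replicates 1 to 4 and at 4442, 3860, 4355 and 5127 CPM in CLP replicates 1 to 4. The lowest CLP library was well above the highest sham library. From 2188 ± 197 CPM, the mean rose 2.03-fold to 4446 ± 521 CPM (log2 fold change 1.02, SE 0.10, 95% interval 0.80 to 1.25, edgeR adjusted p = 2.11e-05). All 19 alternative settings called Fth1 higher, between 0.70 with library totals and 1.12 without sham replicate 1.

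Ftl1, the light chain, was read at 2402, 1936, 2082 and 1740 CPM in the sham libraries and at 2567, 2259, 2294 and 2770 CPM in the CLP libraries. Only sham replicate 1 reached into the CLP range. Its means were 2040 ± 279 and 2473 ± 241 CPM, a log2 fold change of 0.28 (SE 0.11, 95% interval 0.04 to 0.52) with an edgeR adjusted p of 0.0595. This value sat near the threshold: it was called without CLP replicate 3 (0.31, adjusted p = 0.0439) or without sham replicate 1 (0.40, adjusted p = 0.015), and DESeq2 gave 0.32 (adjusted p = 0.0248). With library totals it was -0.04 (adjusted p = 0.727).

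Named processed copies of the ferritin genes had few reads in this table. The 2 copies of Fth1 held 5 to 44 reads per library and at most 0.0891% of the Fth1 reads, and the 3 of Ftl1 held 164 to 282 reads and at most 0.659%. How the counting treated reads that match several copies is not given in the sources used here, and unnamed copies were not counted.

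Ratios of 2 genes within a library do not depend on how libraries are scaled, and 5 were tested with a two-sided exact permutation test over the 70 assignments of 4 against 4 libraries, whose smallest possible p is 0.0286. The heavy to light chain ratio of reads, Fth1 over Ftl1, was 1.03, 1.05, 1.03 and 1.20 in sham replicates 1 to 4 and 1.73, 1.71, 1.90 and 1.85 in CLP replicates 1 to 4. No sham library came near the CLP range. Its mean went from 1.08 ± 0.08 to 1.80 ± 0.09, a 1.67-fold rise (exact permutation p = 0.0286, Benjamini-Hochberg 0.0358 over the 5 ratios, n = 4 each). So heavy chain RNA rose relative to light chain RNA in all 4 CLP libraries under any scaling.

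Which chain had more RNA per length depended on the Fth1 transcript assumed, of 1494 or 929 bases, while Ftl1 had 968. With the longer one, Fth1 over Ftl1 per length was 0.699 in sham and 1.16 in CLP, and with the shorter one 1.12 and 1.87. On the longer length the order of the chains turned between the groups, and on the shorter one heavy chain RNA was ahead in both.

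The balance of storage against export RNA moved the same way in each CLP library. Fth1 over Slc40a1 was 0.471, 0.473, 0.518 and 0.481 in the sham libraries and 1.28, 1.07, 1.48 and 1.41 in the CLP libraries. Ferroportin reads thus outnumbered heavy chain reads in every sham library and were fewer in every CLP library. This crossing holds for reads only, since the Slc40a1 transcript is longer (3370 bases). Per length, mean Fth1 over Slc40a1 was 1.1 in sham and 2.95 in CLP with the longer Fth1 transcript. With the shorter one it was 1.76 and 4.75, so by these means heavy chain RNA was ahead in both groups. The mean ratio of reads rose 2.68-fold, from 0.486 ± 0.022 to 1.31 ± 0.18 (exact permutation p = 0.0286, Benjamini-Hochberg 0.0358). Ftl1 over Slc40a1 rose 1.61-fold, from 0.452 ± 0.042 (0.399 to 0.502) to 0.727 ± 0.068 (0.627 to 0.778), with no overlap and the same exact permutation p of 0.0286. Light chain RNA, whose own change did not pass the threshold, therefore rose relative to ferroportin RNA.

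**Figure D2:**
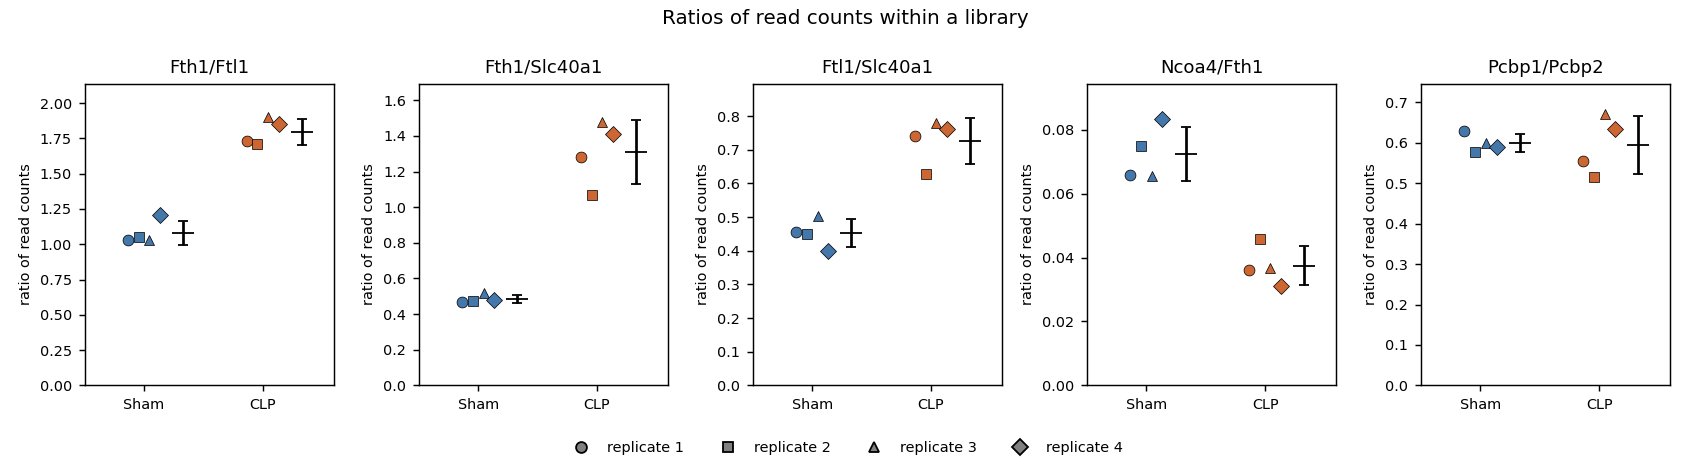
Ratios of read counts within each library (linear axis from 0) for 5 gene pairs, 1 point per library, with the mean and SD beside each group. Fth1/Ftl1, Fth1/Slc40a1 and Ftl1/Slc40a1 are higher and Ncoa4/Fth1 lower in all 4 CLP libraries, and Pcbp1/Pcbp2 overlaps.

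Ncoa4, the receptor that delivers ferritin to the lysosome, was not shown to change with TMM scaling. It was read at 163, 153, 141 and 174 CPM in the sham libraries and 160, 177, 161 and 159 CPM in the CLP libraries. The ranges overlapped, and 3 CLP libraries were nearly equal, with CLP replicate 2 above them. The means were 158 ± 14 and 164 ± 8.5 CPM (log2 fold change 0.06, SE 0.08, 95% interval -0.12 to 0.23, edgeR adjusted p = 0.592). With library totals Ncoa4 was called lower (-0.26, adjusted p = 0.0234).

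Relative to Fth1, a chain of its cargo, the receptor's RNA fell under any scaling. With TMM scaling this mostly restates the rise of Fth1 (log2 fold change 1.02, against 0.06 for Ncoa4). Ncoa4 over Fth1 was 0.0659, 0.0751, 0.0655 and 0.0832 in the sham libraries and 0.0360, 0.0458, 0.0369 and 0.0311 in the CLP libraries. The groups lay apart, and the mean ratio was 1.94-fold lower after CLP (log2 difference -0.96, exact permutation p = 0.0286, Benjamini-Hochberg 0.0358).

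Both iron chaperones were higher after CLP by a small step with TMM scaling. Pcbp1 was read at 203, 176, 179 and 172 CPM in the sham libraries and at 226, 205, 240 and 242 CPM in the CLP libraries. Pcbp2 was read at 322, 304, 299 and 290 CPM and at 409, 398, 358 and 382 CPM. Neither gene's groups overlapped, though for Pcbp1 the highest sham and the lowest CLP library nearly met. The log2 fold change was 0.33 for Pcbp1 (SE 0.08, edgeR adjusted p = 0.00703) and 0.35 for Pcbp2 (SE 0.07, adjusted p = 0.00204).

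The chaperones' calls rested on the scaling. With library totals Pcbp1 stood at 0.01 (adjusted p = 0.924) and Pcbp2 at 0.03 (adjusted p = 0.697), and with the surrogate variable from raw counts Pcbp1 stood at 0.27 (adjusted p = 0.11). Their ratio to each other was 0.600 ± 0.022 in sham and 0.594 ± 0.071 in CLP, with overlapping ranges (two-sided exact permutation p = 0.83, n = 4 each). Both proteins also bind RNA and serve outside iron handling. Hnrnpk, a paralog with the same kind of RNA-binding domain, was higher by 0.43 (adjusted p = 0.000358) and by 0.11 with library totals (adjusted p = 0.153).

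Cp, which encodes ceruloplasmin, a copper-carrying ferroxidase secreted mainly by the liver and also made by macrophages, had the largest fold change of the 7. It was read at 38.0, 44.6, 55.8 and 18.3 CPM in sham replicates 1 to 4 and at 139, 127, 398 and 186 CPM in CLP replicates 1 to 4. Every CLP library was above every sham library, but CLP replicate 3 was far above the other CLP libraries and sham replicate 4 below the other sham libraries. From 39.2 ± 15.8 CPM the mean rose 5.44-fold to 213 ± 126 CPM (log2 fold change 2.44, SE 0.50, 95% interval 1.28 to 3.61, edgeR adjusted p = 0.00621). Without CLP replicate 3 the log2 fold change was 1.95 (adjusted p = 0.00863), and with library totals 2.14. With the surrogate variable from raw counts it was 1.85 and the call was lost (adjusted p = 0.0782).

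Per kilobase Cp rose from 9.72 to 52.8 CPM, which moved it from place 5327 to place 1328 of 13949 genes. Its level after CLP was still far below that of ferroportin per kilobase (1013 CPM). The 8 hepatocyte marker genes measured each stayed under 1 CPM in every library, 1 of them at 0, and their sum was 0.0583 to 1.65 CPM in sham and 0.548 to 1.03 CPM in CLP. CLP replicate 3, with the most Cp, had the lowest Slc40a1 (2948 CPM) of all libraries and the highest summed neutrophil markers (176 CPM, other CLP libraries 103 to 138 CPM, sham 77.5 to 94.1 CPM) and marginal zone macrophage markers (959 CPM, others 545 to 711 CPM). Most of the neutrophil sum was 1 gene, Csf3r, with a mean of 79.0 CPM in sham and 111 CPM in CLP. S100a8 and S100a9 reached at most 10.1 and 16.4 CPM. The marginal zone sum was nearly all Marco, Siglec1 and Nr1h3, with CLP means of 227.5, 273.4 and 231.5 CPM. Of its 4 tested genes 1, Marco, was called (higher), while Cd209b reached at most 0.92 CPM in any library. The part of the cells behind these markers in the Cp result was not tested.

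Heph, the membrane-bound ferroxidase best known from gut cells, was close to the detection limit. It had 1, 2, 1 and 9 reads in sham replicates 1 to 4 and 0, 5, 5 and 1 reads in CLP replicates 1 to 4, 24 reads in all. The 0 allows up to 3 reads, or 0.192 CPM, in that library, by counting error only. Heph did not pass the filter on low counts, and without the filter its log2 fold change was 0.13 (SE 0.94, edgeR adjusted p = 0.933), so no difference was detectable at this depth. Of the ferroxidase pair, RNA was thus found in quantity for Cp alone.

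**Figure D3:**
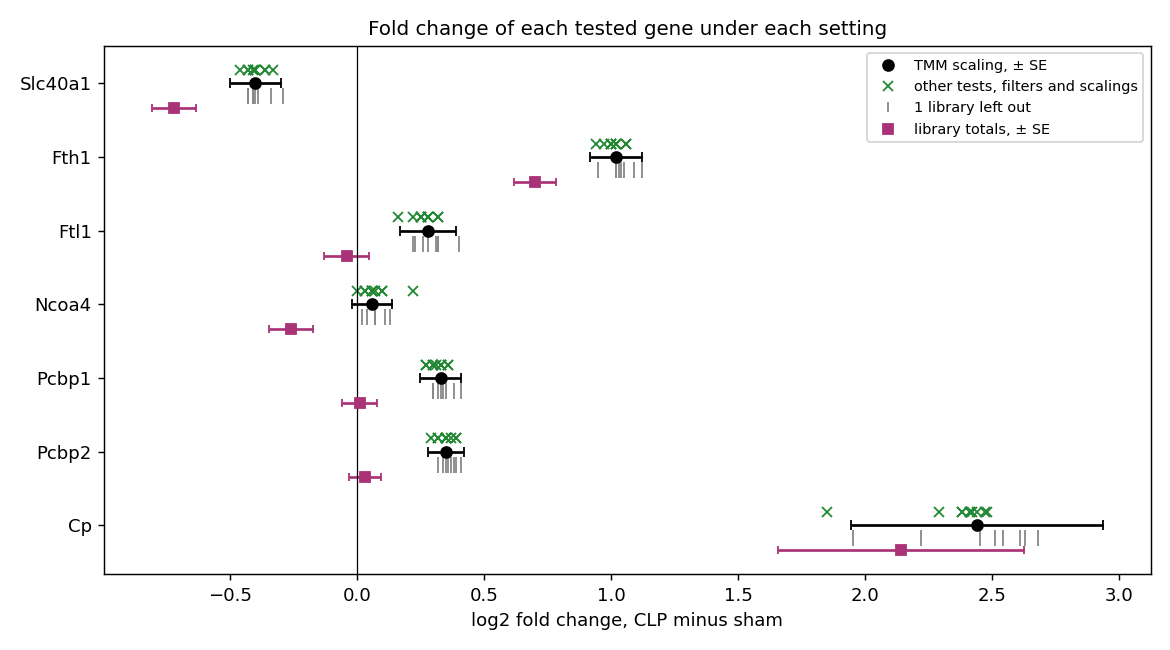
Log2 fold change (CLP minus sham) of the 7 tested genes with TMM scaling and SE (circles), with library totals and SE (squares), with each library left out (ticks) and under the other tests, filters and scalings (crosses). Slc40a1 stays below 0 and Fth1 and Cp above 0 in all of them, while Ftl1 and Ncoa4 lie on both sides of 0.

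The identity of the sorted cells and signs of other cells were read from marker genes. Red pulp macrophage markers summed to 43410 to 53090 CPM in sham and 52660 to 60560 CPM in CLP, and of 15 tested 8 were higher and 1 lower, or 1 higher and 3 lower with library totals. Over all genes tested, 19.8% were higher and 23.5% lower, or 9.18% and 46.0% with library totals. Vcam1 stood at 0.36, Adgre1 at 0.44, Spic at 0.90, Cd163 at -0.16 and Mertk, the 1 called lower, at -0.51 on the log2 scale, all picked with their values known. With library totals they stood at 0.04, 0.13, 0.58, -0.475 and -0.83, in that order. Vcam1 and Adgre1 then lost their calls, and Cd163 was called lower. Clec4f, better known from liver macrophages, was at 0 in all libraries. Erythroid markers summed to 304, 415 and 477 CPM in sham replicates 1 to 3, 1374 CPM in sham replicate 4 and 719 to 1238 CPM in CLP. In sham replicate 4, with the most erythroid RNA, Fth1 stood at 2095 CPM and Ftl1 at 1740 CPM, both within or below the range of the other sham libraries. Platelet markers summed to 7.17 to 9.14 CPM in sham and 19.8 to 24.6 CPM in CLP. Dendritic cell markers summed to 38.7 to 56.0 CPM in sham and 60.6 to 77.6 CPM in CLP, but went both ways. Of 7 tested, 2 were higher, Ccr7 (1.47) and Zbtb46 (0.735), and 1 was lower, Clec9a (-0.758). For T and NK cell markers the sums were 98.7 to 102.9 and 106.4 to 128.1 CPM. Most of these sums was Cd4, with means of 72.9 and 86.1 CPM and no call. Of 9 tested, 0 were higher and 1 was lower, Ncr1, at means of 0.873 and 0.207 CPM. The B cell marker sum was lower in CLP, at 32.6 to 43.9 CPM against 45.1 to 51.35 CPM in sham. Most of that sum was Cd79b, with a mean of 32.1 CPM in sham and 21.5 CPM in CLP. It was the 1 B cell marker called lower, and the other 6 of 7 had no call. The sums of monocyte markers and of endothelial and stromal markers overlapped between the groups. Without sham replicate 4 each of the 7 tested genes kept its direction and its side of the threshold. Total counts per library were 15392992 to 25665633.

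Within these libraries the genes also moved with each other. Pearson's r of log2 CPM over the 8 libraries was 0.95 between Fth1 and Pcbp1, 0.92 between Fth1 and Pcbp2 and 0.88 between Fth1 and Cp, and -0.76 between Fth1 and Slc40a1. Ncoa4 had an r between -0.06 and 0.32 with each of the other 6. These values are descriptions over 2 groups that differ in most of these genes, and the points share libraries and scaling.

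By the same measure the genes most like Fth1 among 9037 compared were Ghitm (r = 0.996), Atp6v1a, the catalytic subunit of the proton pump that acidifies lysosomes (0.995), and Sgpl1, which breaks down sphingosine phosphate (0.994). For Slc40a1 they were Pcyox1l (0.976), the tyrosine kinase gene Btk (0.973) and Snapin (0.973). For Cp they were the myeloid receptor gene Cd300lf (0.996), Zfp263 (0.996) and Ltv1 (0.993). Pcbp1 was most like Apex1, a DNA repair enzyme (0.997), the translation factor gene Eif3g (0.994) and Arpc4, a part of the actin-branching complex (0.993). Pcbp2 was most like Cmtm3 (0.996), Frmd6 (0.994) and the peroxiredoxin gene Prdx6 (0.992).

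Of the 21 genes with the stem-loop, 16 were tested: 8 were higher, 3 lower and 5 did not pass the threshold. The shares over all genes tested were 19.8% higher and 23.5% lower. Among them was Alas2, the erythroid enzyme of heme synthesis and a textbook carrier of the element (log2 fold change 1.57, edgeR adjusted p = 0.00467). The log2 fold changes of Slc40a1, Ftl1 and Fth1, the 3 of the 8 genes that carry it, were -0.40, 0.28 and 1.02. A part of the element in these RNA changes was not tested. Aco1, which encodes an iron regulatory protein, was lower by 0.26 on the log2 scale (adjusted p = 0.0178), and Ireb2, the other iron regulatory protein gene, stood at -0.03 (adjusted p = 0.856). With library totals both were called lower, Aco1 at -0.58 (edgeR adjusted p = 0.000103) and Ireb2 at -0.35 (adjusted p = 0.0365). Alas2, Aco1 and Ireb2 fall outside the rule for named genes and were picked once their values were known.

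Transcription of ferroportin and ferritin is known to be restrained by Bach1 and raised by Nfe2l2 with small Maf partners, and Spic drives the red pulp macrophage program. Of 11 listed regulators 7 were higher and 2 lower, with both scalings. Of all genes tested 19.8% were higher and 23.5% lower, or 9.18% and 46.0% with library totals. Bach1 rose from 113 ± 15 to 675 ± 134 CPM (log2 fold change 2.57, edgeR adjusted p = 1.73e-06), Maff from 32.3 ± 10.2 to 228 ± 21 CPM (2.83, adjusted p = 2.6e-05) and Spic from 1186 ± 118 to 2213 ± 370 CPM (0.90, adjusted p = 0.000166). Nfe2l2 rose by 1.06. Keap1, which marks the Nfe2l2 protein for breakdown, fell by 0.93 and Maf by 0.82. Nfe2l2, Keap1 and Maf are outside that rule too, and were chosen after their values were seen.

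The 250 bases before the start were searched on both strands in 11 RefSeq promoters of 6 of the 8 genes (GRCm38.p6). Slc40a1 and Heph are not in that set. For the 2 genes with the largest rises, the upstream stretch that held NF-kB letters is shown, with those letters in capitals. They are GGGA, any 4 bases and CC, here read on the other strand. The other promoter listed for each of the 2 genes held none and is not shown. The printed stretches lie at chr19:9982396-9982645 for Fth1 and chr3:19956999-19957248 for Cp, both on the plus strand.
Fth1: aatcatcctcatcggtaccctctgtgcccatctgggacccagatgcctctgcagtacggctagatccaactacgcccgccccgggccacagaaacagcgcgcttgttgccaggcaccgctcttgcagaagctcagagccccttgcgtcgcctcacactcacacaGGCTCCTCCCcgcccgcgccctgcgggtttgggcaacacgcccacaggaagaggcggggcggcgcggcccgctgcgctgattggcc
Cp: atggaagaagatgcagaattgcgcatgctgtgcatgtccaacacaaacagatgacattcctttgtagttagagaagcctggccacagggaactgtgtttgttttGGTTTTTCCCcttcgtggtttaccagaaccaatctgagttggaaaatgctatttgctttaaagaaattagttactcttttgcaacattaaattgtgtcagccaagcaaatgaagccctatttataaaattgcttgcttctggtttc
The match ran from base -86 to -77 in Fth1 and from -146 to -137 in Cp, and another was found in a promoter of Ncoa4 from -62 to -53. Such letters stand in 17.6% of all 32851 promoters, so 3 of 11 is a description only. The antioxidant response letters TGACNNNGC were found in 1 of the 11, a promoter of Ncoa4 (10.2% of all), and the Maf letters, TGCTGA, any base and TCA, in 0 (0.353% of all). Hypoxia response letters ACGTG or GCGTG were found in 7 of the 11 (38.6% of all). Metal response letters TGCACNC or TGCGCNC were found in 2 (21.4% of all). The C/EBP letters, TTG or TTA, any 2 bases and CAA, were found in 2 as well (14.5% of all).

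Around these 8 genes, 119 further genes of iron handling were listed, of which 102 were tested: 41 were higher and 6 lower (46.1% changed, median log2 fold change 0.24). With library totals 23 were higher and 25 lower. Over all genes tested 43.3% changed, close to the share of these genes. Of all genes 19.8% were higher and 23.5% lower, or 9.18% and 46.0% with library totals. In ferritin turnover and autophagy, 7 of 14 were higher and 3 lower, a balance that turned to 3 higher and 6 lower with library totals. The cargo receptor genes Sqstm1 (log2 fold change 1.49, edgeR adjusted p = 8.52e-06) and Tax1bp1, which works with Ncoa4 in ferritin breakdown (1.24, adjusted p = 2.53e-06), rose while Ncoa4 stood at 0.06. The 3 that fell were Atg5, Atg16l1 and Pik3c3, named after their values were seen, which serve in forming autophagosomes (-0.31, -0.46 and -0.98).

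Among 11 tested genes of iron import and reduction 5 were higher and 0 lower, but 3 were higher and 3 lower with library totals. For this list and those that follow, the shares over all genes tested were 19.8% higher and 23.5% lower. With library totals those shares were 9.18% and 46.0%, and counts in lists this short say little by themselves. The metalloreductase gene Steap4 went from 0.635 ± 0.438 to 20.3 ± 7.4 CPM, Slc11a2, the iron importer DMT1, from 42.2 ± 2.5 to 123 ± 36 CPM, and Slc11a1, the phagosomal metal transporter, from 904 ± 77 to 1184 ± 52 CPM. Of 9 tested genes of heme uptake and breakdown 1 was higher, the heme exporter gene Flvcr1 (0.40, edgeR adjusted p = 0.0426), and 0 were lower, against 0 higher and 2 lower with library totals. With library totals the calls of Slc11a1 (0.07) and Flvcr1 (0.08) were lost. Hmox1, the heme oxygenase that frees the iron, was at 5237 ± 940 and 5866 ± 1033 CPM (0.16, adjusted p = 0.405). In iron sensing 3 of 11 were higher and 1 lower, or 1 higher and 5 lower with library totals. Among them were Bmp2 (2.21, edgeR adjusted p = 0.000294) and Smad7, an inhibitor of hepcidin signalling (0.41, adjusted p = 0.0247, and 0.09 with library totals). The most abundant, Hfe, stood at -0.16 (adjusted p = 0.205) and was called lower with library totals (-0.47, adjusted p = 0.00107).

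Ceruloplasmin needs copper, and of 13 tested copper handling genes 7 were higher and 0 lower, or 3 and 0 with library totals. Beside each list here, 19.8% of all genes tested were higher and 23.5% lower, or 9.18% and 46.0% with library totals. Sod1, the copper-zinc superoxide dismutase and the most abundant, was among those called (0.29, edgeR adjusted p = 0.0285) but stood at -0.02 with library totals (adjusted p = 0.836). The metallothionein genes Mt2 and Mt1 rose from 2.27 ± 0.40 to 52.9 ± 17.4 CPM and from 83.3 ± 13.1 to 347 ± 83 CPM. Of 9 tested targets of the Nfe2l2 protein 5 were higher and 0 lower (4 and 1 with library totals), led by Slc7a11, the cystine importer (4.55, edgeR adjusted p = 2.21e-05), and Txnrd1, thioredoxin reductase (2.03, adjusted p = 2.49e-06). Of 14 tested mitochondrial iron and iron-sulfur genes 4 were higher and 0 lower, but 1 was higher and 3 lower with library totals. Iscu, the scaffold of iron-sulfur cluster assembly, stood at 0.91 (edgeR adjusted p = 0.000424) and the iron carrier gene Slc25a28 at 0.59 (adjusted p = 0.00162, lost with library totals at 0.28, adjusted p = 0.0577). The other carrier gene, Slc25a37, was the most abundant of the list and stood at 0.51 (adjusted p = 0.447). Its sham libraries spread widely, at 165 ± 125 CPM (74.6 to 349.5) against 235 ± 59 CPM in CLP. The whole list summed to 962 CPM in sham replicate 4, the erythroid-rich library, and to at most 586 CPM in the other sham libraries. Of 10 tested PCBP partners and paralogs 2 were higher, Hnrnpk and the oxygen-sensing hydroxylase gene Egln2 (1.54, edgeR adjusted p = 4.01e-05), and 0 lower. With library totals 1 was higher and 3 lower, and the call of Hnrnpk was lost.

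**Figure D4:**
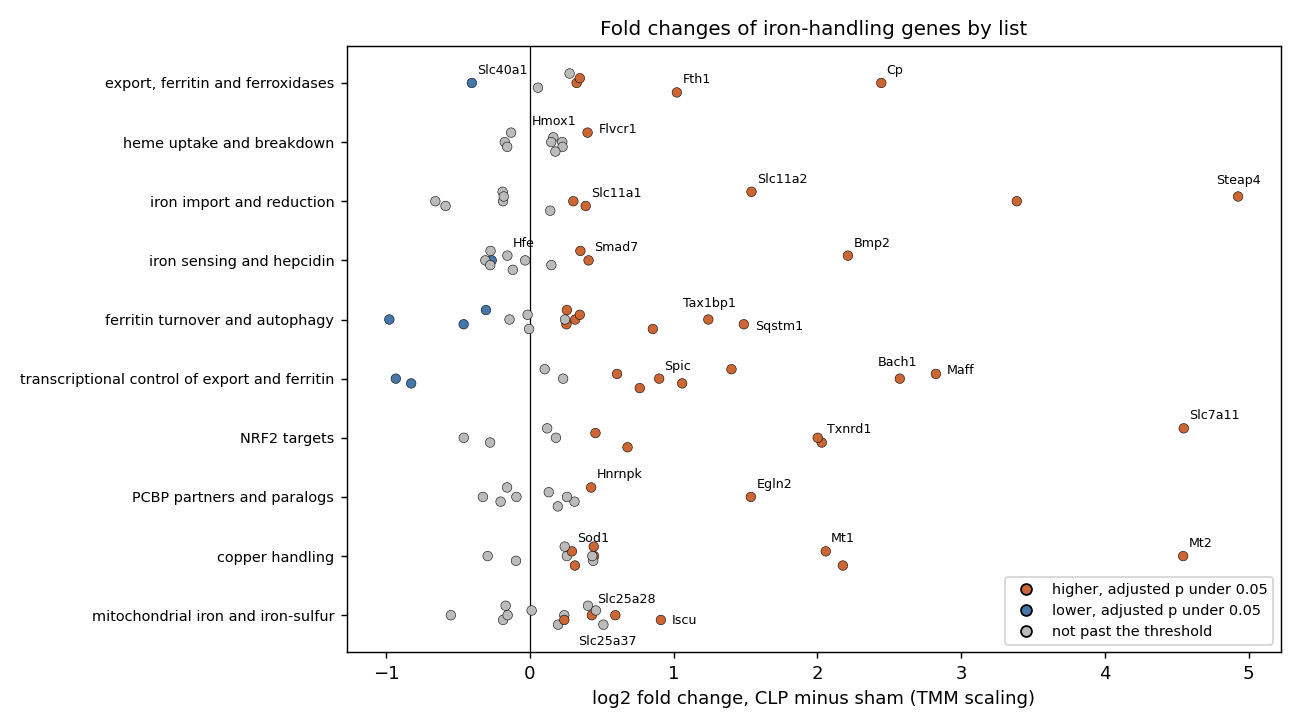
Log2 fold change (CLP minus sham, TMM scaling) of each tested gene, 1 point per gene, for the export, ferritin and ferroxidase genes (top) and 9 lists of other iron and copper genes, coloured by edgeR call. Slc40a1 (-0.40) is the single lower gene in its row, and Fth1 (1.02) and Cp (2.44) lie to its right with the called chaperones between.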

How the data were processed

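RNA of sorted mouse red pulp macrophages was sequenced in 4 CLP and 4 sham libraries. The authors deposited 1 table of raw read counts with an Ensembl ID per row. A stranded Illumina kit and an Element AVITI were used, per the labels' protocols. FastQC, STAR 2.7.10b, featureCounts, DESeq2 and the build mm39 are named in the submitters' processing notes, without roles. Not given in the sources used here are the strand setting and the annotation release. Overlapping genes on opposite strands may therefore share reads. Of 55414 IDs, 52081 had a symbol in GENCODE mouse release 21 (GRCm38), which also gave lengths and 5′ UTRs. Promoters are from RefSeq (GRCm38.p6).

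The test was edgeR 4.0.16 (R 4.3.3), with TMM factors of 0.873 to 0.915 in CLP and 1.08 to 1.15 in sham, 14004 genes left by filterByExpr, a robust quasi-likelihood fit of the 2 groups, and Benjamini-Hochberg adjustment over every tested gene (threshold 0.05). A gene at 1 CPM rests on 15.1 to 27.6 reads. Libraries of a group differed beyond sampling noise in each pair (chi-square per degree of freedom at least 8.48). Alternatives were DESeq2 1.42.0, limma-voom 3.58.1, other scalings and filters, surrogate variables (sva 3.50.0), a replicate block and each library left out. Correlations used log2 CPM with a prior count of 2. Besides the 8 genes, the text names from each list the most abundant gene and the 2 largest changes past the threshold at a mean of at least 5 CPM, and the 3 genes most like each changed gene. The genes and lists were chosen with earlier results of these data known. The edgeR step was tested on simulated data.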

Additional observations from a re-analysis of the deposited data

Results flagged for a closer look

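In each group of 4 libraries, the highest and lowest values of the 8 genes and 5 ratios were compared with the rest of their group. Of 26 groups, 3 had a library that stood apart, and chance flags about 1 in 20 groups. Ncoa4 in CLP replicate 2 was 176.9 CPM, above the other CLP libraries at 159.2 to 160.5 CPM, and still close to the highest sham library at 174.4 CPM. The ratio of Fth1 to Ftl1 reads in sham replicate 4 was 1.204, above the other sham libraries at 1.03 to 1.05 and below all CLP libraries. That library had the lowest Ftl1 (1740 CPM) and the most erythroid marker RNA of all 8, whose part in the ratio was not tested. Heph in sham replicate 4 was 0.37 CPM, which rests on 9 reads.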

How the results depend on the processing

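Over the 7 tested genes, leaving out each library in turn kept the direction and the side of the threshold in 54 of 56 fits, and both exceptions were Ftl1. Its log2 fold change ran from 0.22 to 0.40. Ftl1 also passed the threshold with DESeq2 (0.32), limma-voom (0.28), DESeq2 size factors (0.32), no filter on low counts (0.25) and 1 surrogate variable from log2 CPM (0.25). Library totals turned Ftl1 to -0.04 and Ncoa4 to -0.26, took Pcbp1 to 0.01 and Pcbp2 to 0.03, and gave 1286 genes higher and 6435 lower, since that scaling moves all fold changes down. A single surrogate variable estimated from raw counts, chosen after seeing the data, ended the calls of Slc40a1 (-0.33), Pcbp1 (0.27) and Cp (1.85) and left 1590 genes higher and 1960 lower. That variable itself was mostly higher in CLP (-0.064 to 0.496) than in sham (-0.562 to 0.265), so it is partly confounded with the groups. A filter at a mean of 10 CPM left 2090 lower genes among the 8029 tested. The log2 ratio of Pcbp1 to Pcbp2 ran from -0.08 to 0.04 with 1 library left out and crossed 0 (0.01 without CLP replicate 1, 0.04 without CLP replicate 2, 0.00 without sham replicate 1). The other 4 ratios kept their direction each time, with a two-sided exact permutation p of 0.0286, the smallest that 3 libraries against 4 allow.

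Replicate numbers in the titles are not said to mark shared mice or days, and libraries with the same number did not deviate together throughout (r from -0.192 to 0.261, with replicate 3 the only number whose libraries matched each other best). With a replicate block, Slc40a1 stood at -0.40, Fth1 at 1.02, Ftl1 at 0.28 and Cp at 2.38, 2799 genes were higher and 3290 lower, and no call of the 7 genes changed. The ratio of Cp to Heph was planned and not computed, because Heph had 0 reads in 1 library. Depth limits Heph alone among the 8 genes.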
